A study of Homo sapiens with 4 samples.

Results

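The lysyl oxidase family was examined in LX-2 cells, a human hepatic stellate cell line, with all 5 genes of the family, *LOX*, *LOXL1*, *LOXL2*, *LOXL3* and *LOXL4*, taken by symbol from a table of 63677 Ensembl genes. Each of the 5 had enough counts to enter the test, which covered 18252 genes. The miR-6133-5p group received the miR-6133-5p mimic and the miControl group a negative control mimic, both at 20 nM, and every culture of both groups was given 5 ng/mL of rhTGF-β1 a day later. RNA was taken 24 h after that, and 2 libraries were made per group. No library without rhTGF-β1 was analysed here, so the values compare the mimics within stimulated cells. LX-2 is 1 cell line, and the labels do not say whether the 2 libraries of a group came from separate cultures, so that the p-values measure only the spread between these libraries, which may be technical.

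Lysyl oxidases are secreted, copper-dependent enzymes that oxidize lysine and hydroxylysine side chains of collagen and elastin to reactive aldehydes, which then condense into covalent crosslinks between neighbouring molecules. *LOX* and *LOXL1* encode enzymes with a propeptide that is cut off outside the cell, whereas *LOXL2*, *LOXL3* and *LOXL4* encode enzymes with scavenger receptor cysteine-rich domains ahead of the same catalytic domain. In fibrotic liver, crosslinking stiffens collagen and makes it harder to degrade, and activated stellate cells are known as a source of these enzymes.

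*LOX*, *LOXL2* and *LOXL4* were lower in the miR-6133-5p libraries, *LOXL1* was not called, and *LOXL3* fell short of the threshold. A gene was called lower or higher when its log2 fold change passed 0.8 and its adjusted p-value was below 0.01, the thresholds stated in the methods of the paper, in edgeR's quasi-likelihood test with Benjamini–Hochberg adjustment over all tested genes. By that rule 3 of the 5 lysyl oxidase genes were called lower, where 5.54% of all tested genes were called lower, and 0 of the 5 were called higher by edgeR or DESeq2, where edgeR called 2.90% of tested genes. All 5 had log2 fold changes below 0, as did 47.7% of all tested genes. That of *LOXL1*, at -0.10, turned to 0.06 with scaling by library totals alone and to 0.02 without miR-6133-5p replicate 2. The median log2 fold change of the 5 was -1.04, against 0.03 over all tested genes. With no fold threshold and an adjusted p below 0.05, 3 of the 5 were lower, against 16.1% of tested genes. Without overlap, 4 of the 5 had their lower values in the miR-6133-5p libraries, as did 31.3% of tested genes, and 0 had their higher values there, against 33.2%. In whole cultures, fewer expressing cells and less RNA per cell cannot be told apart.

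The libraries held between 51862006 and 93811213 counts on genes, the largest being replicate 2 of miR-6133-5p. Levels are given as CPM, the usual depth-scaled count, here with the library total multiplied by its TMM factor, a scaling that centres most genes on no change. A single count was worth 0.0203 CPM in the smallest library and 0.0101 CPM in the largest. Replicates of a group correlated across tested genes at a Pearson's r of 0.991 in both groups, a description in which genes are not independent. Of the stellate and mesenchymal markers, *VIM* stood at 1815 ± 54.6 CPM and *PDGFRB* at 41.7 ± 2.62 CPM (SD, n = 2) with miControl, while *DES* had 0 counts with miControl and *LRAT* at most 2 per miControl library. The hepatocyte marker genes *TTR* and *HNF4A* had 0 counts in all 4 libraries. Summed hepatocyte, endothelial and macrophage markers lay between 2.05 and 11.2 CPM in every library. Of those tested, 0 were called by edgeR or DESeq2 and 1 had an unadjusted p below 0.05, a threshold at which the share of all genes was not computed. Over all tested genes, edgeR called 5.54% lower and 2.90% higher. Of 8 tested stellate markers 3 were called lower, *ACTA2*, *COL1A1* and *COL1A2*, and 0 higher, against the same 5.54% and 2.90%. The other 5 were not called, *COL3A1* at -0.44, *VIM* at -0.02, *PDGFRB* at 0.04, *RELN* at 0.28 and *THY1* at 0.35 on the log2 scale. The stellate list summed to 5248 and 4765 CPM with miControl and 3199 and 2878 CPM with miR-6133-5p. The epithelial list summed to 83.9 and 85.4 against 39.9 and 36.8 CPM, with *EPCAM* and *CDH1* at or near 0. *SOX9* made up most of it, at 80.2 and 80.8 against 33.1 and 29.5 CPM, and was called lower, while *KRT7* was at 3.62 and 4.44 against 6.61 and 7.08 CPM (log2 0.76, edgeR adjusted p = 0.00317), short of the fold threshold. Their part in the values below was not tested.

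*LOX* (ENSG00000113083), the founding member of the family, lies on chromosome 5 from 121398890 to 121414108 of GRCh37 on the minus strand. Its level was 747 and 802 CPM in the miControl libraries and 347 and 315 CPM in the miR-6133-5p libraries, from 36718, 43674, 22658 and 31255 counts. Both miR-6133-5p libraries were below both miControl libraries, and the gap was many times the difference between replicates. The mean fell from 774 ± 38.9 to 331 ± 22.1 CPM (SD, n = 2), to 42.7% of miControl. The log2 fold change was -1.23 ± 0.106 (SE) at an edgeR adjusted p of 2.30e-06. *LOX* was 209th in abundance among tested genes, and 3.79% of them had a lower log2 fold change. Exons of *SRFBP1* on the opposite strand cover 2.47% of the *LOX* exon bases, and *SRFBP1* itself was at 26.7 ± 3.15 and 24.2 ± 0.429 CPM.

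*LOXL2* (ENSG00000134013), whose product also crosslinks the collagen IV of basement membranes, lies on chromosome 8 from 23154410 to 23282841, minus strand. It measured 659 and 606 CPM with miControl and 298 and 316 CPM with miR-6133-5p, a mean of 633 ± 37.4 against 307 ± 13.1 CPM (SD, n = 2). The groups did not overlap, and the level with miR-6133-5p was 48.5% of that with miControl. Its log2 fold change was -1.04 ± 0.105 (SE, 95% interval -1.27 to -0.82) at an edgeR adjusted p of 8.51e-06. When edgeR's glmTreat asked whether the change exceeded 0.8 itself, the adjusted p was 0.113 for *LOXL2* and 0.00609 for *LOX*, so that only *LOX* of the 5 genes was then called. An antisense gene, *LOXL2-AS1*, covers 2.97% of the *LOXL2* exon bases, and *ENTPD4*, on the same strand, 2.01%.

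*LOXL4* (ENSG00000138131), on chromosome 10 from 100007447 to 100027951, minus strand, had the lowest log2 fold change of the family and one of its lowest levels. Its level was 1.85 and 1.29 CPM with miControl and 0.551 and 0.666 CPM with miR-6133-5p, from 91, 70, 36 and 66 counts. The 2 groups did not overlap, although the miControl libraries were far apart for their level. The mean fell from 1.57 ± 0.400 to 0.608 ± 0.0814 CPM (SD, n = 2), a log2 fold change of -1.35 ± 0.325 (SE, 95% interval -2.06 to -0.65) at an edgeR adjusted p of 0.00679. The call rested on few counts. Without miControl replicate 1 the log2 fold change was -1.08 (adjusted p = 0.120, edgeR), and without miControl replicate 2 it was -1.62 (adjusted p = 0.0128, edgeR), so neither kept the call. With counts thinned to the smallest library it was -1.29 (adjusted p = 0.0151, edgeR).

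*LOXL3* (ENSG00000115318), on chromosome 2 from 74759385 to 74782817, minus strand, was at 1.71 and 1.67 CPM with miControl and at 0.948 and 1.11 CPM with miR-6133-5p, from 84, 91, 62 and 110 counts. Both miR-6133-5p libraries were again the lower ones, with means of 1.69 ± 0.0268 and 1.03 ± 0.114 CPM (SD, n = 2). The log2 fold change of -0.71 (standard error 0.271, 95% interval -1.30 to -0.12) had an adjusted p of 0.0658 (edgeR), and *LOXL3* was not called. The interval includes both a change near that of *LOX* and one close to 0. Exons of *HTRA2* on the opposite strand cover 20.7% of the *LOXL3* exon bases, and those of *DOK1* 4.78%. *HTRA2*, a mitochondrial protease gene, was more abundant than *LOXL3*, at 18.3 ± 0.236 and 22.9 ± 2.48 CPM. The library kit was a stranded one, but the strand setting of the counting is not given in the sources used here, and the part of these overlaps in the *LOXL3* values was not tested.

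*LOXL1* (ENSG00000129038), known for its part in keeping elastic fibres, lies on chromosome 15 from 74218330 to 74244478 on the plus strand. It was at 34.2 and 30.0 CPM with miControl and at 33.0 and 27.0 CPM with miR-6133-5p, from 1681, 1634, 2155 and 2676 counts. The groups overlapped, with means of 32.1 ± 2.96 and 30.0 ± 4.22 CPM (SD, n = 2). The log2 fold change was -0.10 ± 0.124 (SE, 95% interval -0.37 to 0.17) at an edgeR adjusted p of 0.600. That interval excludes the values of *LOX* and *LOXL2*. Exons of the antisense gene *LOXL1-AS1* cover 9.21% of the *LOXL1* exon bases. *LOXL1-AS1* was called lower, from 17.8 and 18.4 CPM with miControl to 10.1 and 10.3 CPM with miR-6133-5p, giving a log2 change of -0.83 ± 0.118 (SE) with an edgeR adjusted p of 0.000160.

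**Figure D1:**
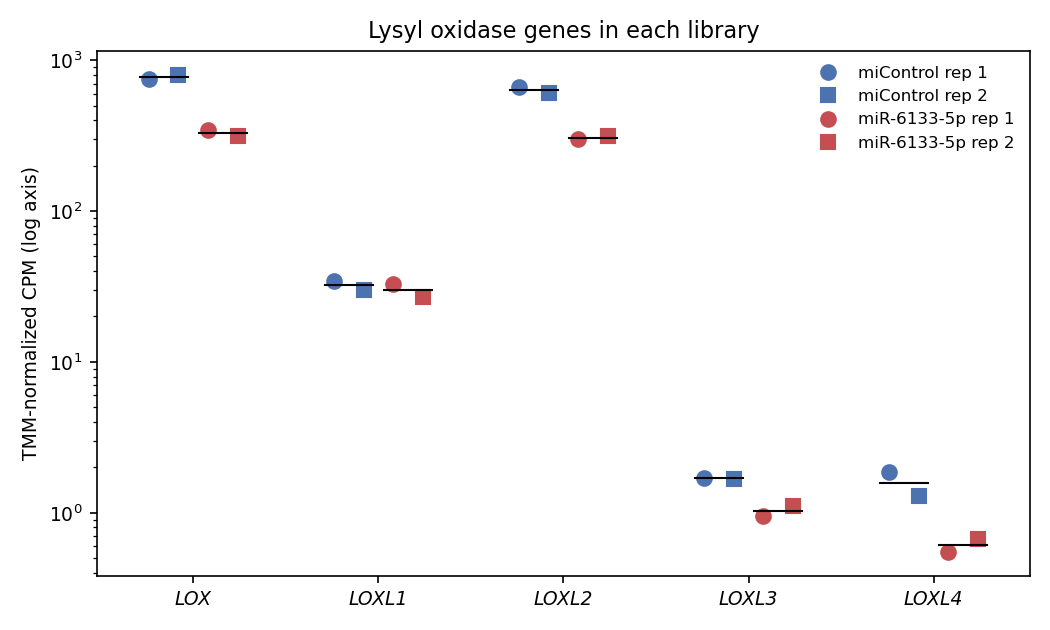
TMM-normalized CPM (log axis) of the 5 lysyl oxidase genes in the 2 miControl libraries (blue) and the 2 miR-6133-5p libraries (red), with circles for replicate 1, squares for replicate 2 and bars for group means. The red points of *LOX* (347 and 315 CPM) and *LOXL2* (298 and 316 CPM) lie well below the blue ones, whereas those of *LOXL1* overlap.

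Without TMM factors, scaling by library totals alone, 709 genes were called lower and 977 higher, in place of 1011 and 529, and the median over all genes moved from 0.03 to 0.19 on the log2 scale. The log2 fold change was then -1.06 for *LOX*, -0.88 for *LOXL2*, -0.54 for *LOXL3*, -1.19 for *LOXL4* and 0.06 for *LOXL1*, whose sign turned. *LOXL4* was not called under that scaling (adjusted p = 0.0119, edgeR). Relative to the median of all tested genes, *LOX* was at -1.25, *LOXL2* at -1.07, *LOXL3* at -0.73, *LOXL4* at -1.38 and *LOXL1* at -0.13 under either scaling. A change of scaling moves all genes and their median by about the same amount. This sameness therefore follows from the arithmetic and is no test of the scaling.

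**Figure D2:**
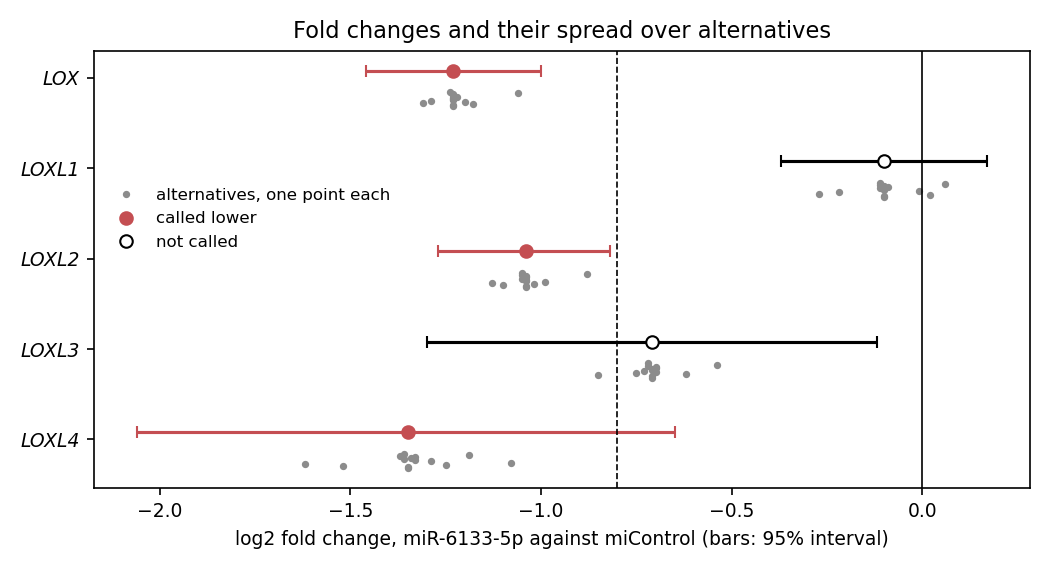
Log2 fold changes of miR-6133-5p against miControl with 95% intervals, red where the gene was called lower and open where it was not, and below each a grey point for each of 14 alternative settings. The dashed line marks -0.8. The alternatives for *LOX* run from -1.31 to -1.06 and those for *LOXL1* from -0.27 to 0.06.

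The promoter sequences of *LOX* and *LOXL1* are shown as the pair of well-expressed family members that differed in response, one called lower and the other not. RefSeq windows, from 250 bases before to 50 bases after a transcription start, matched 4 of the 5 genes, and the one for *LOXL2* was not analysed here. Capitals mark ACGTG, the core of the hypoxia response element, on either strand. Motifs were chosen after the values were known.

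*LOX* (GRCh38.p14, chr5:122078210-122078509, minus strand): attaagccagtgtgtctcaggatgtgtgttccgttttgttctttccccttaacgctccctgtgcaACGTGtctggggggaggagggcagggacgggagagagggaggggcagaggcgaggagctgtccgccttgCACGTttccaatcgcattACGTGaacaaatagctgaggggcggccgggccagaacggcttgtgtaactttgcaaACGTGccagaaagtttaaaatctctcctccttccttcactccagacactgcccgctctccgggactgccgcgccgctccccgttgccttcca

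*LOXL1* (GRCh38.p14, chr15:73926212-73926511, plus strand): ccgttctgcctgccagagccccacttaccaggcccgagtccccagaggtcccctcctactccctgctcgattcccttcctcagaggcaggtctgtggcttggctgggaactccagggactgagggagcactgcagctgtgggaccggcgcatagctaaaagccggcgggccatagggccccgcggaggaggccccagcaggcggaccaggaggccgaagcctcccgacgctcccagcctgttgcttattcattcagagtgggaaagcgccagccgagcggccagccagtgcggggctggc

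The *LOX* window of the first transcription start held 4 matches to ACGTG, beginning 185, 116, 98 and 42 bases before the start. Of 35116 windows of this length, 21.4% held at least 1 such match and 0.843% held 4 or more. The *LOXL1*, *LOXL3* and *LOXL4* windows held none. The windows of both other *LOX* starts overlap, and the 1 match in each is the same stretch of sequence. GCGTG, the other common form of this core, had 0 matches in the printed *LOX* and *LOXL1* windows, against 36.5% of all windows with one. CAGAC, a half-site of SMAD binding, had 2 matches in the *LOX* window and 1 in that of *LOXL1*, and 45.3% of windows held it. TGANTCA, the AP-1 motif, had 0 matches in any window of the 4 genes, with 7.71% of all windows holding one. GGAATG, bound by TEAD factors, had 2 matches in the *LOXL3* window of the first start and 0 in the printed ones, against 14.0% of windows with one. Both strands were searched, and each motif was counted on its own, overlapping matches included. A match is a run of letters and not evidence of binding.

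Levels of different genes were compared after division by exon length, in CPM per kilobase, with the union of annotated exons as the length. On that scale *LOX* and *LOXL2* made up nearly all lysyl oxidase mRNA. *LOX* stood at 138 ± 6.95 CPM per kilobase with miControl and 59.1 ± 3.95 with miR-6133-5p, and *LOXL2* at 106 ± 6.26 and 51.3 ± 2.19 (SD, n = 2). *LOXL1* followed far behind at 8.82 ± 0.815 and 8.24 ± 1.16 CPM per kilobase. *LOXL4* and *LOXL3* came last with miControl, at 0.436 ± 0.111 and 0.374 ± 0.00592 CPM per kilobase, and their library values overlapped. With miR-6133-5p, *LOXL3* at 0.228 ± 0.0252 lay above *LOXL4* at 0.169 ± 0.0226 CPM per kilobase without overlap. The order of *LOX* and *LOXL2* depended on the length used. With the longest transcript as the length, *LOXL2* was the higher, at 170 against 153 CPM per kilobase with miControl and 82.5 against 65.2 with miR-6133-5p.

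The summed level of the 5 genes was 254 CPM per kilobase in both miControl libraries, and 121 and 117 in the miR-6133-5p libraries. Within the miControl pair *LOX* was higher in replicate 2 and *LOXL2* in replicate 1, and the sum hid this. The mean sum with miR-6133-5p was 46.9% of that with miControl, a log2 ratio of -1.09, and no test was run on the sum. *LOX* supplied 54.5% ± 2.79 of the sum with miControl and 49.6% ± 2.12 with miR-6133-5p, and *LOXL2* 41.7% ± 2.43 and 43.1% ± 2.88 (SD, n = 2). The share of *LOXL1* was 3.70% and 3.25% in the miControl libraries and 7.48% and 6.34% in the miR-6133-5p libraries, without overlap.

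**Figure D3:**
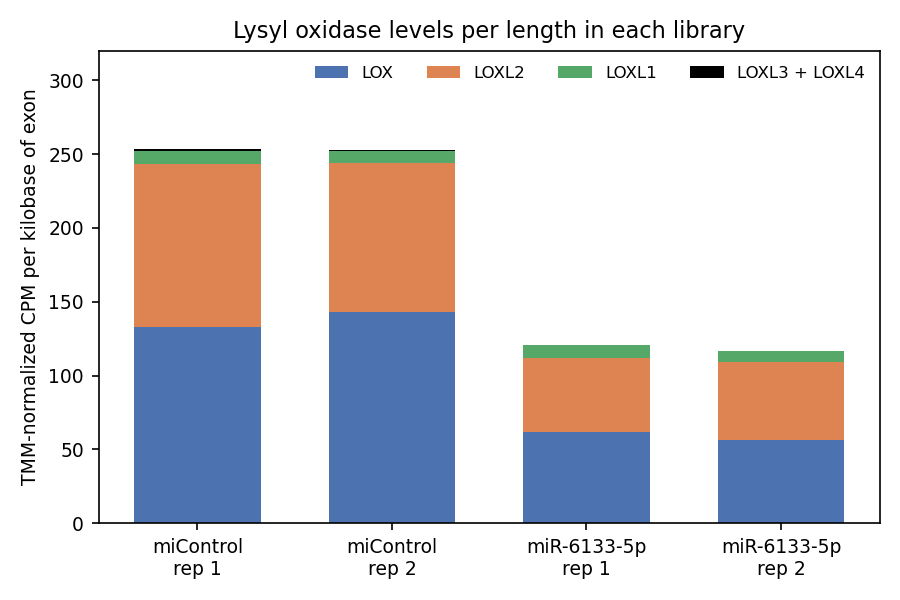
Stacked bars of TMM-normalized CPM per kilobase of exon for the lysyl oxidase genes in each of the 4 libraries. The bars reach 254 in both miControl libraries and 121 and 117 in the miR-6133-5p libraries, and *LOXL3* with *LOXL4* is barely visible at the top.

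Ratios within a library showed how the members moved against each other, free of the scaling between libraries. The log2 ratio of *LOX* to *LOXL1*, in levels per kilobase, was 3.83 and 4.12 with miControl and 2.77 and 2.92 with miR-6133-5p, a mean difference of -1.12 without overlap. The log2 ratio of *LOXL1* to *LOXL2* was -3.55 and -3.62 with miControl and -2.46 and -2.83 with miR-6133-5p, again without overlap. By contrast, the log2 ratio of *LOX* to *LOXL2* was 0.28 and 0.50 with miControl and 0.32 and 0.09 with miR-6133-5p, and the groups overlapped. Of the ratios with *LOXL3* or *LOXL4*, which rest on few counts, only that of *LOX* to *LOXL4* overlapped. The rest did not, with mean differences from -0.51 for *LOX* to *LOXL3* to 1.25 for *LOXL1* to *LOXL4*. Some were barely apart, such as *LOXL2* to *LOXL4* at 7.74 and 8.15 with miControl and 8.34 and 8.16 with miR-6133-5p. These ratios share the same genes and are not independent. The share of other gene pairs without overlap was not computed. An exact permutation test on any of these ratios cannot go below p = 0.333 with 2 libraries against 2, and none was run.

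**Figure D4:**
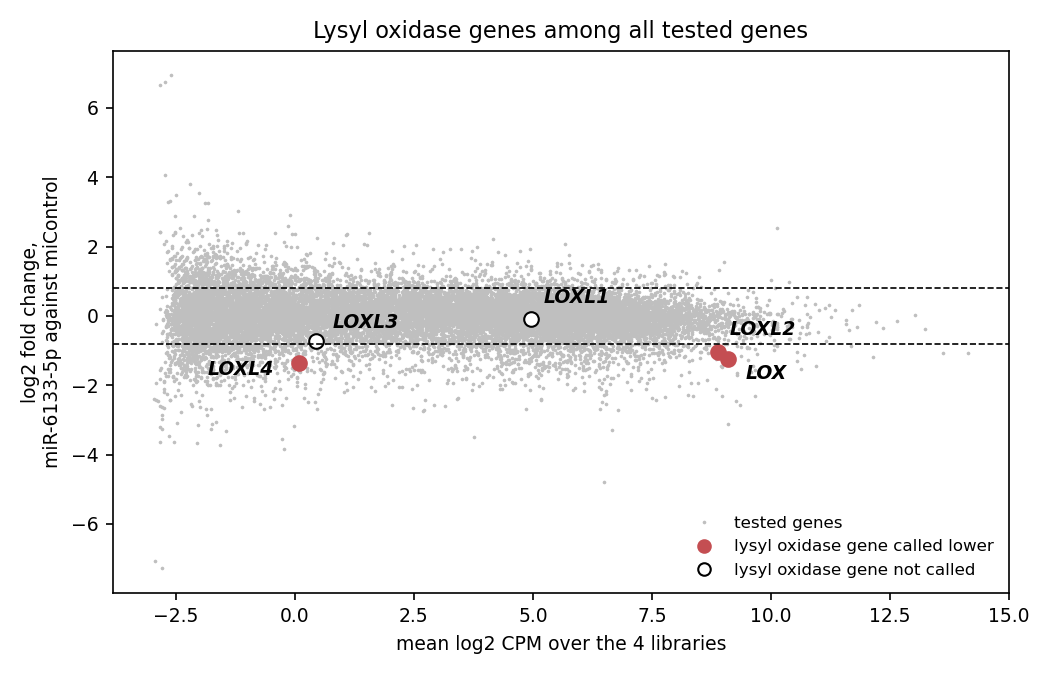
Log2 fold change of miR-6133-5p against miControl for all 18252 tested genes (grey) against their mean log2 CPM, with the lysyl oxidase genes in red where called lower and open where not. The dashed lines mark 0.8 in each direction. *LOX* and *LOXL2* sit among the abundant genes, near 9.11 and 8.88 on the horizontal axis, while *LOXL3* and *LOXL4* sit at 0.44 and 0.08.

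The share of genes called lower depended on abundance, at 7.52% of the 9614 genes whose log2 CPM averaged 3 or more and 3.33% of the 8638 others. *LOX*, *LOXL1* and *LOXL2* belong to the first set and *LOXL3* and *LOXL4* to the second. Genes whose centred log2 CPM lay nearest to that of *LOX* over the 4 libraries were sought among 9508 named genes of the first set. They were *NR2F1-AS1*, a long noncoding RNA gene, *DUSP10*, a phosphatase gene acting on JNK and p38, *HBEGF*, a ligand gene of the EGF receptor, *EMP1* and *MYCT1*. Their Euclidean distances ran from 0.0752 to 0.0985 on the log2 scale and their log2 fold changes from -1.27 to -1.20. With 4 libraries in 2 groups, likeness of pattern here is mostly likeness of the fold change.

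Fibronectin and fibulin-5 genes were lower among the genes whose products act on lysyl oxidases outside the cell. Of 7 tested, 3 were called lower and 0 higher by edgeR, where 5.54% and 2.90% of all tested genes were, and DESeq2 made the same numbers of calls. Their median log2 fold change was -1.07. At an adjusted p below 0.05 without a fold threshold, they counted 4 lower and 1 higher, against 16.1% and 14.1% of tested genes. An unadjusted p below 0.05 gave the same counts, with no share of all genes computed at that threshold. *FN1* encodes fibronectin, which binds lysyl oxidase and the protease that activates it, and fell from 24874 and 24503 to 10244 and 13270 CPM, a log2 change of -1.07 ± 0.118 (SE) with an edgeR adjusted p of 1.87e-05. *FBLN5*, an elastic fibre glycoprotein gene, fell from 4.03 and 4.04 to 1.19 and 1.10 CPM, a log2 change of -1.82 ± 0.213 (SE) with an edgeR adjusted p of 3.10e-05. *TLL1*, a tolloid-like protease gene, fell from 2.68 and 2.59 to 0.964 and 1.36 CPM, a log2 change of -1.17 ± 0.251 (SE) with an edgeR adjusted p of 0.00338. The call for *TLL1* was lost without miControl replicate 1 (adjusted p = 0.0469, edgeR) or without miControl replicate 2 (adjusted p = 0.0243, edgeR).

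*BMP1*, the main protease known to release the propeptide of *LOX*, went the other way without passing the fold threshold. It measured 86.6 and 80.6 CPM with miControl and 116 and 125 CPM with miR-6133-5p, giving a log2 change of 0.52 ± 0.104 (SE) with an edgeR adjusted p of 0.00190, and the groups did not overlap. *POSTN*, for periostin, which brings *BMP1* product and fibronectin together, had a log2 fold change of -1.31 on few counts (adjusted p = 0.0172, edgeR) and was not called. *EFEMP2*, for fibulin-4, which tethers lysyl oxidase to elastin, was at 0.13 on the same scale and overlapped between groups. *FMOD* had 0 counts in all libraries, and *TLL2* and *PCOLCE2* had too few to be tested.

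Of 9 tested genes for copper uptake, export and delivery, edgeR called 0 lower and 0 higher and DESeq2 also called 0. With 5.54% of all tested genes called lower and 2.90% higher, a count of 0 among 9 is near the background. At an adjusted p below 0.05 without a fold threshold, 0 were lower and 2 higher, against 16.1% and 14.1% of tested genes. At an unadjusted p below 0.05, 0 were lower and 3 higher, and the share of all genes at that threshold was not computed. The 3 were *CCS*, the copper chaperone of superoxide dismutase, at 0.46 on the log2 scale (edgeR adjusted p = 0.0122), *COMMD1* at 0.35 (edgeR adjusted p = 0.0459) and *COX17* at 0.39 (edgeR adjusted p = 0.0664), all short of the fold threshold. *ATP7A*, the pump that loads copper onto secreted enzymes in the Golgi, was at 20.9 and 24.4 CPM with miControl and 19.1 and 24.1 CPM with miR-6133-5p, and the groups overlapped. *ATOX1*, which hands copper to that pump, was at 47.6 and 44.7 against 46.8 and 41.6 CPM. *SLC31A1*, the main copper importer, had a log2 change of -0.09 ± 0.100 (SE) with an edgeR adjusted p of 0.568. *SCO2* was not analysed here.

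Of 11 tested substrate genes of lysyl oxidases, 3 were called lower and 0 higher by edgeR and by DESeq2, against 5.54% and 2.90% of all tested genes by edgeR. Their median log2 fold change was -0.40. At an adjusted p below 0.05 without a fold threshold, 6 were lower and 1 higher, against 16.1% and 14.1% of tested genes. An unadjusted p below 0.05 gave the same counts, with no share of all genes computed at that threshold. *COL1A1*, the main fibrillar collagen chain of scar tissue, fell from 3112 and 2723 to 995 and 1133 CPM, a log2 change of -1.46 ± 0.112 (SE) with an edgeR adjusted p of 8.88e-07. *COL1A2* was at -1.11 on the log2 scale and *COL5A3*, with 35 to 90 counts per library, at -1.58. The call for *COL5A3* was lost without miControl replicate 1 (edgeR adjusted p = 0.0234) or miControl replicate 2 (edgeR adjusted p = 0.0170). The study reports *LOX*, *LOXL2*, *COL1A2*, *COL5A3*, *FBLN5*, *SNAI2*, *VEGFA*, *TGFBR2* and *HBEGF* among lower genes of these same libraries. Their direction here is therefore not independent evidence. *COL5A1* and *COL5A2* were at 0.06 and -0.04 on the log2 scale and overlapped between groups. *COL3A1* was at -0.44 (adjusted p = 0.00486, edgeR), and the collagen IV genes *COL4A1* and *COL4A2* were at -0.60 and -0.40, none of them past the fold threshold. Without miR-6133-5p replicate 2, *COL4A1* was called, at -0.82. *ELN*, for elastin, had 0 counts in all 4 libraries, where 3 counts would correspond to at most 0.0610 CPM.

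Among 12 other genes that modify or crosslink collagen, 1 was called lower and 1 higher, counts near the 5.54% and 2.90% of all tested genes. At an adjusted p below 0.05 without a fold threshold, 7 were lower and 1 higher, against 16.1% and 14.1% of tested genes, and the median log2 fold change was -0.38. *PLOD2*, the lysyl hydroxylase of collagen telopeptides, where lysyl oxidases act, fell from 255 and 290 to 126 and 124 CPM, a log2 change of -1.12 ± 0.108 (SE) with an edgeR adjusted p of 5.62e-06. *PLOD1* and *PLOD3* were at -0.37 and -0.14 on that scale and were not called. *TGM2*, for a transglutaminase that crosslinks proteins without copper, rose from 8.83 and 7.11 to 17.7 and 21.2 CPM, a log2 change of 1.29 ± 0.144 (SE) with an edgeR adjusted p of 2.08e-05. In all, 11 of the 12 had a log2 fold change below 0, against 47.7% of all tested genes.

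**Figure D5:**
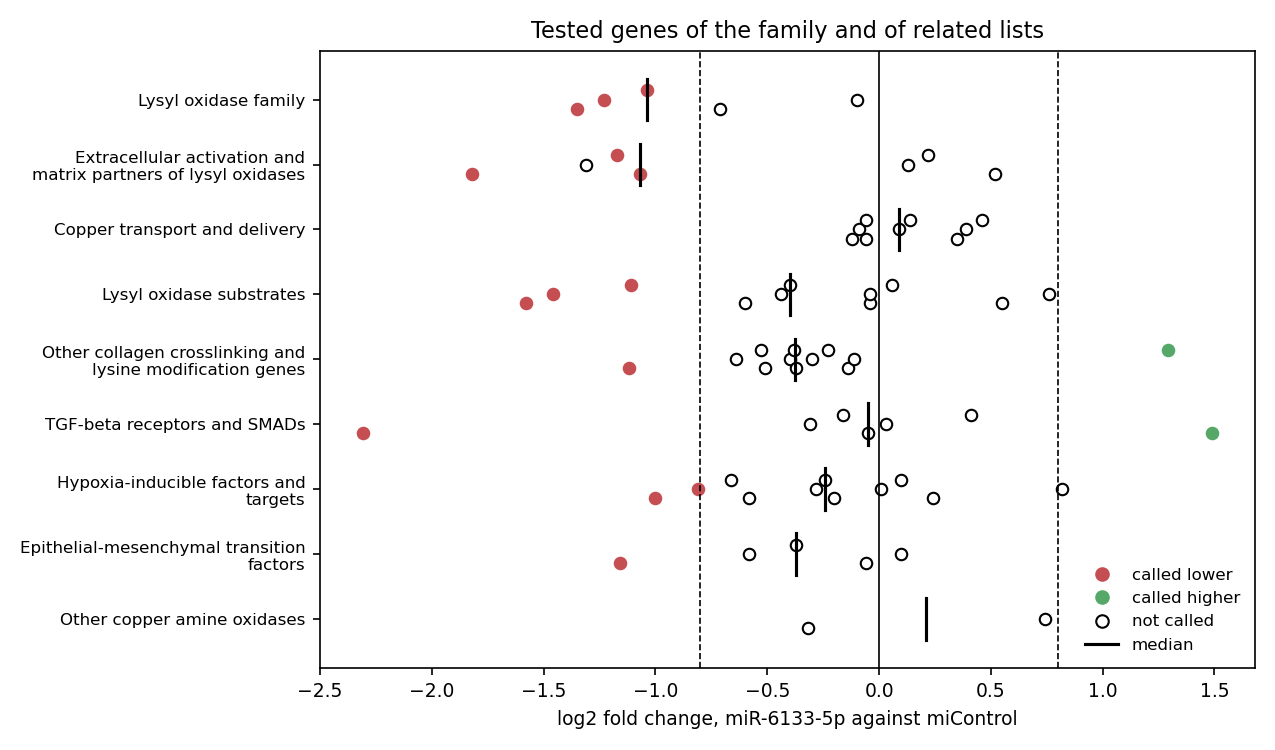
Log2 fold changes of miR-6133-5p against miControl for the tested genes of the lysyl oxidase family and of 8 related lists, 1 point per gene, red for called lower, green for called higher and open for not called, with a vertical bar at each median. Dashed lines mark 0.8 in each direction. The family's median is -1.04, that of its extracellular partners -1.07 and that of the copper genes 0.09.

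Known inducers of *LOX* transcription include TGF-β and hypoxia, and their genes were listed for that reason. Of 7 receptor and SMAD genes, against the same 5.54% and 2.90% of all tested genes, *TGFBR2* alone was called lower, from 542 and 552 to 109 and 112 CPM, a log2 change of -2.31 ± 0.105 (SE) with an edgeR adjusted p of 1.98e-08. *TGFBR3*, for the coreceptor betaglycan, alone was called higher, at 1.49. At an adjusted p below 0.05 without a fold threshold, 2 of the 7 were lower and 2 higher, against 16.1% and 14.1% of tested genes. These included *SMAD3* at 0.41 (adjusted p = 0.00767, edgeR) and *SMAD7* at -0.31 (adjusted p = 0.0423, edgeR), both short of the fold threshold. Of 11 tested hypoxia genes, 2 were called lower and 0 higher by edgeR and by DESeq2, against 5.54% and 2.90% of all tested genes by edgeR. At an adjusted p below 0.05 without a fold threshold, 4 were lower and 0 higher, against 16.1% and 14.1% of tested genes. An unadjusted p below 0.05 gave 6 lower and 0 higher, and the share of all genes at that threshold was not computed. The 2 called lower were *VEGFA*, which fell from 366 and 352 to 178 and 181 CPM, and *EPAS1*, for the HIF-2α subunit, at -0.81 (adjusted p = 7.09e-05, edgeR). *EPAS1* lost its call at -0.64 with library totals alone and at -0.76 without miR-6133-5p replicate 1. *HIF1A* was at 486 and 606 CPM with miControl and 581 and 591 CPM with miR-6133-5p and overlapped. *NDRG1* and *ADM*, both hypoxia targets, were at -0.66 and -0.58 without passing the fold threshold.

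*SNAI2* was the one gene called lower of 5 epithelial-to-mesenchymal transition factors, at -1.16 (standard error 0.109, adjusted p = 4.81e-06, edgeR), against 5.54% of all tested genes, and edgeR and DESeq2 called 0 of them higher. At an unadjusted p below 0.05, as at an adjusted one, 3 were lower and 0 higher. The adjusted threshold was met by 16.1% of all tested genes as lower and 14.1% as higher, and the share at the unadjusted one was not computed. *SNAI1*, whose protein is a known partner of the *LOXL2* product, was at 12.0 and 9.33 CPM with miControl and 7.31 and 6.95 CPM with miR-6133-5p, which is -0.58 on the log2 scale (adjusted p = 0.0101, edgeR). Of the copper amine oxidases outside the family, which use a different cofactor, *AOC2* was at -0.32 and *AOC3* at 0.74, neither called, and *AOC1* had 2 counts in 1 library. *AOC2* and *AOC3* both had an unadjusted p below 0.05, a threshold at which the share of all genes was not computed. *AOC3* had only 49 to 167 counts per library. Of the 2 tested, edgeR and DESeq2 called 0, where edgeR called 5.54% of all tested genes lower and 2.90% higher. With glmTreat against 0.8, *FN1*, *TLL1*, *COL1A2*, *COL5A3*, *PLOD2*, *TGM2*, *VEGFA*, *EPAS1* and *SNAI2* were no longer called.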

How the data were processed

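Poly(A)+ RNA of LX-2 cells was sequenced paired-end, in 2 libraries per group. The submitters' processing notes name STAR 2.5.3a, featureCounts and Subread 1.6.4 with GRCh37, and the paper adds GeneData Profiler. The annotation release and the strand setting are not given in the sources used here. The authors deposited whole-number counts per Ensembl gene without normalization, in a matrix and, with 0 differing values, per library. A deposited mapping summary gave the read pairs and, as a fraction, the share of pairs mapped uniquely, which was 96.5% to 96.8%. The gene counts were 1.68 to 1.70 times the uniquely mapped pairs, so that a pair could add more than 1 count. Counts can carry amplification variation and, if the cultures were separate, culture variation besides counting error.

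Genes were filtered with filterByExpr, scaled by TMM (factors of 0.941 to 1.06) and tested by quasi-likelihood in edgeR 4.0.16 (R 4.3.3), using the default legacy method of glmQLFit and without a replicate block, and the test was 2-sided. Standard errors came from the F statistic and intervals from its degrees of freedom. DESeq2 1.42.0 was an alternative. Symbols matched 55665 of the 63677 gene IDs. Exon lengths and overlaps came from GENCODE v44lift37, and the counting may have used another annotation. In simulated data with 200 genes changed by 2 on the log2 scale among 17575, edgeR found 200 with 0 false calls, and smaller changes were not simulated. Members and lists were chosen with earlier results of these data known. The genes named are the 5 members, those overlapping them, the called members of each list (at most 4, by adjusted p) with members whose role is described, and the 5 genes nearest to *LOX*. Seed matches of the mimic and protein sequences were not analysed here, and neither were RT-qPCR or Western blots. Figures were drawn with matplotlib 3.10.9.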

Additional observations from a re-analysis of the deposited data

How the results depend on the processing

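*LOX* was called lower under all 14 alternatives, between -1.31 and -1.06, and *LOXL3*, between -0.85 and -0.54, was called under none of them. *LOXL2* lost its call only with glmTreat, at -1.04, and *LOXL4* with library totals alone (-1.19), with thinned counts (-1.29), with glmTreat (-1.35) and, among log2 fold changes of -1.62 to -1.08 with a library left out, without either miControl library. *LOXL1* turned to 0.06 with library totals alone and ranged from -0.27 to 0.02 with a library left out, the positive value being that without miR-6133-5p replicate 2. The number of the 5 genes called lower, 3 as reported, was 2 with library totals alone, with thinned counts and without either miControl library, and 1 with glmTreat. Over all genes, glmTreat called 326 lower and 80 higher, an adjusted p of 0.05 without a fold threshold 2937 and 2574, and library totals alone 977 higher. With a library left out, from 293 (without miControl replicate 1) to 587 (without miR-6133-5p replicate 2) were called higher. The cause of this spread was not tested. With library totals alone or without miR-6133-5p replicate 1, *COL11A2* made 1 substrate gene higher and the loss of *EPAS1* left 1 hypoxia gene lower, so that left-out counts ran from 0 to 1 and from 1 to 2. The log2 ratio of the summed level per kilobase, -1.09, was -0.93 with library totals alone, -0.94 without *LOX*, -1.13 without *LOXL2* and -1.14 without *LOXL1* in the sum. The remaining causes were not tested. The replicate numbers pair nothing that the labels name, and same-numbered libraries deviated together with a correlation of only 0.0490 across genes. With the replicate block, 3 of the 5 genes were called lower, and over all genes 1130 lower and 642 higher, and *POSTN* was called (adjusted p = 0.00669, edgeR), as it was without a filter on low counts and with at least 10 counts in every library. The block changed no other call among the members and lists. The quasi-likelihood method of edgeR 4, added after the data were seen, called 3 of the 5, 1045 genes lower and 531 higher. *LOXL3* and *LOXL4* had 36 to 110 counts per library, and what kept *LOXL3* from being called was not tested. Groups of 2 allowed no test of single outlying libraries.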
